A study of Homo sapiens with 7 samples.

Results

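DNMT1 is the methyltransferase that copies CG methylation onto newly made DNA, and short hairpin RNAs (shRNAs) numbered 49 and 51 were used against it in the established colorectal cancer cell lines DLD1, HT29 and RKO. The comparison described here sets the 3 samples with shRNA 51 against the 3 with shRNA 49, paired by line, which are 6 of the 7 samples of the series. On each 2-colour Agilent array, knockdown RNA was hybridised together with RNA from the matching line that had received a non-silencing control. Cy3 labelled the knockdown RNA in all shRNA 49 samples and Cy5 labelled it in all shRNA 51 samples, so the hairpin and the dye orientation are the same split of the samples and cannot be told apart in any difference below. The remaining sample, HCT116 cells with a UHRF1 shRNA against their own control, has the dye orientation of the shRNA 51 arrays, shares no sample with them, and serves as a comparison. Its label gives a knockdown efficiency of 60% and carries the mark d14, which may be a day. Whether the DNMT1 arrays match it in time is not known. No time point, no hairpin sequence and no number of cultures per array are stated for the DNMT1 samples, so the spread measured here is between single arrays of 3 lines and may be technical.

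In dividing cells UHRF1 recognises hemimethylated CG sites behind the replication fork and brings DNMT1 to them, and without DNMT1 methylation is diluted with each division. Genes with methylated promoters that are silent in somatic cells, above all germ cell and cancer-testis genes, are known to be expressed when this maintenance fails. A hairpin is cut by Dicer into a small RNA that guides the silencing complex to its target, and every hairpin sequence can also act on other transcripts. Cy3 and Cy5 label and scan with different efficiency, and for this reason ratios of opposite dye orientation are usually averaged rather than contrasted.

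Values are deposited log ratios, taken as log2 from their range and read as knockdown over control, a likely direction since DNMT1 lay below 0 on all 6 arrays. Where a pair of values is given for a line, shRNA 49 comes first and shRNA 51 second, and "difference" means shRNA 51 minus shRNA 49 within a line. The shRNA 51 arrays had more blank probes (2610 to 5075 of 41000) than the shRNA 49 arrays (205 to 352) and a wider spread of ratios, with interquartile ranges of 0.778 to 0.968 against 0.558 to 0.726. A total of 718 probes were blank on all 3 shRNA 51 arrays and on no shRNA 49 array, and 0 showed the reverse. Only probes with a ratio on all 6 arrays were used, which left 15653 genes. Between 34.0% and 37.5% of the ratios of an array equalled that of another probe exactly, and such ratios are called shared below. Ratios within a line carry no expression level, so the labelled cell type could not be checked by level: epithelial markers (EPCAM, KRT8, KRT18, KRT19, CDH1) were measured, but only their differences can be described.

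DNMT1 itself lay below control with both hairpins. In DLD1 it stood at 25.4% of control with shRNA 49 and 22.2% with shRNA 51. HT29 had 23.8% and 52.8%, and RKO 10.4% and 19.7%. DNMT1 was thus higher with shRNA 51 in HT29 and RKO and slightly lower in DLD1. The differences were -0.20, 1.15 and 0.92, a mean of 0.62 ± 0.72 (SD, n = 3 lines), with p = 0.5 in an exact two-sided sign-flip permutation test whose smallest possible p is 0.25, and a limma adjusted p of 0.534.

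Across all genes, 3544 lay higher with shRNA 51 in all 3 lines (22.6%) and 2398 lay lower (15.3%). At least 2-fold in every line, 243 genes were higher (1.55%) and 79 were lower (0.505%). Far more genes passed 2-fold in each line taken alone than in all 3, with 1682 genes higher in DLD1, 2079 in HT29 and 2079 in RKO. No gene passed the limma test at an adjusted p of 0.05: the smallest adjusted p was 0.117, and 1838 genes (11.7%) had an unadjusted p under 0.05. With shared ratios left out, 8 of 9777 genes lay higher past the threshold (0.0818%) and 6 lower (0.0614%), of which VCY, UCHL1, PLAU, SPANXA1, SLC15A3, C1QTNF5, LIN28A, TUB and NDST1 are described below. Without the pairing by line, 3 genes lay lower past the threshold (0.0192%), C1QTNF5, BAALC-AS2 and TUB. With a trended, robust spread estimate 2 lay higher (0.0128%), DAZL and UCHL1. That trend ran over the mean absolute log ratio of each gene, which a wide difference itself raises, and not over signal strength. The 2-fold counts were 75.5% higher genes as deposited, 70.9% with the arrays scaled to one spread and 49.4% after quantile normalization, so the excess of higher genes depends on how the arrays are scaled.

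The 243 higher genes were mostly near control with shRNA 49 and above it with shRNA 51. Their median ratios in DLD1 were -0.02 and 1.93, those in HT29 -0.19 and 1.80, and those in RKO 0.06 and 2.52. With shRNA 51, 231 of them (95.1%) lay above control in all 3 lines, while the shRNA 49 mean of 191 (78.6%) stayed within 2-fold of control. Below control on every shRNA 49 array and above it on every shRNA 51 array were 57 of the 243 higher genes (23.5%). Of all genes, 549 (3.51%) did so. Of the 79 lower genes, 57 (72.2%) crossed control the opposite way on all arrays, against 417 of all genes (2.66%). Both sets were chosen for the size of this difference, so the shares are a description of them. The medians of the lower genes in DLD1 were 0.60 and -1.02, those in HT29 0.53 and -1.31, and those in RKO 0.49 and -1.33. In RNA of whole cultures, more cells that express a gene and more RNA per cell cannot be told apart.

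**Figure D1:**
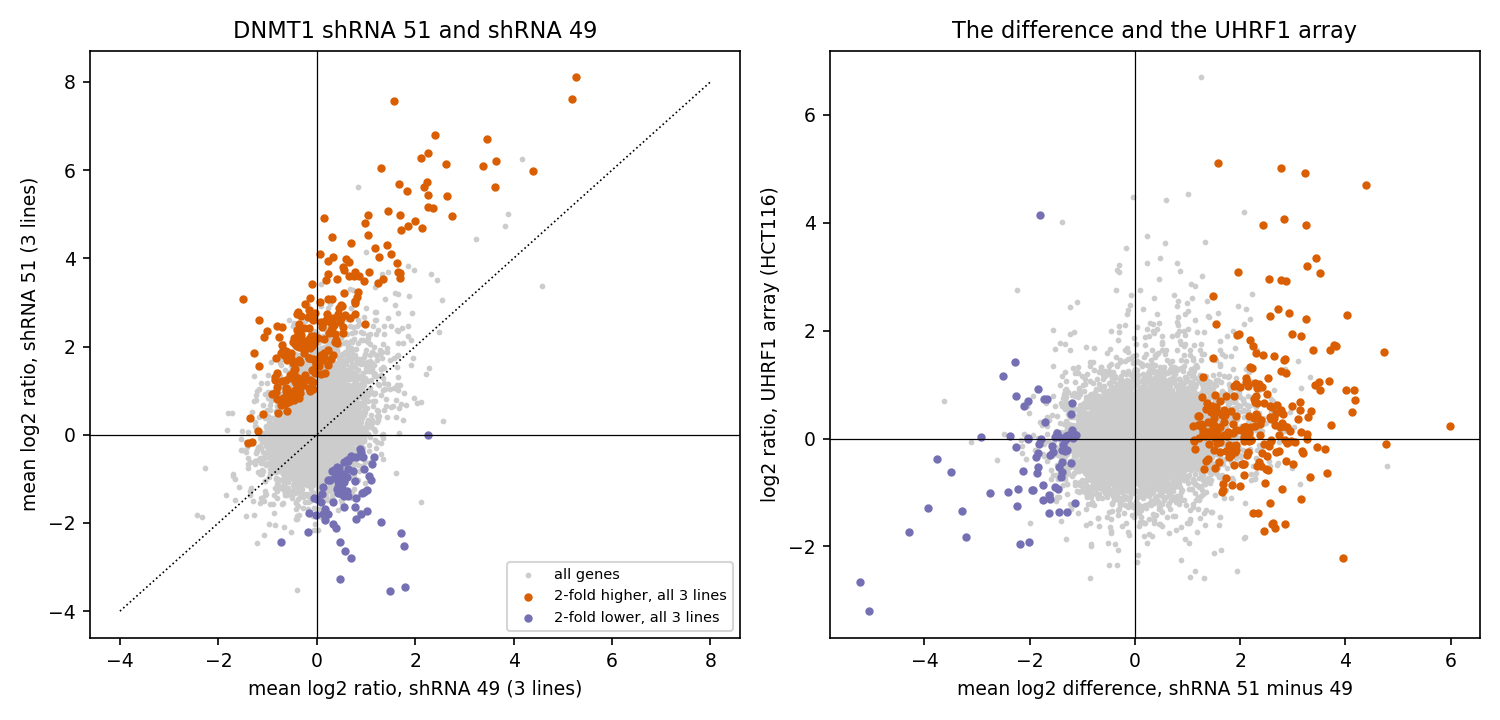
Left, mean log2 ratio of each gene over 3 lines with shRNA 49 (x axis) and shRNA 51 (y axis), with the dotted line marking equal ratios; right, mean log2 difference (x axis) against the log2 ratio of the UHRF1 array (y axis). Each point is a gene; the 243 genes at least 2-fold higher in all 3 lines are orange, the 79 lower ones violet, and most violet points lie right of 0 with shRNA 49 and below 0 with shRNA 51.

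Near the 2-fold edge, BDKRB1 was just inside among the higher genes, with a smallest line difference of 1.00, and DZIP1 just outside. YWHAH-AS1 and ASCL2 were the matching pair among the lower genes. Other probes of the same gene followed the higher probes more than the lower ones. Of 124 higher probes with a sister probe, 114 (91.9%) had sister probes of the same sign on average, with a median sister difference of 1.13 against 2.20 for the probes themselves. Of 67 lower probes, 42 (62.7%) had sisters of the same sign, with medians of -0.21 against -1.6.

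The genes furthest apart on the higher side were led by germ cell genes. DAZL, an RNA-binding protein of germ cells, stood at -0.46 and 7.18 in DLD1, at 1.89 and 6.0 in HT29 and at 3.28 and 9.52 in RKO. All 3 shRNA 51 values lay above all 3 shRNA 49 values, and the mean difference was 5.99 ± 1.78 (SD, n = 3 lines, 63.8-fold, limma adjusted p = 0.198). TDRD9, a helicase of the piRNA pathway that silences transposons in the germ line, stood at -0.34 and 3.36, at 1.08 and 4.21, and at 1.38 and 5.48 in the same order of lines (mean difference 3.65 ± 0.49, limma adjusted p = 0.131). OOEP, a protein of the oocyte's maternal complex, stood at -0.36 and 4.19, at 0.60 and 3.86, and at 0.67 and 5.39 (limma adjusted p = 0.131). The shRNA 51 ratio was the higher one in every line for these genes, although with shRNA 49 DAZL was also well above control in HT29 and RKO. On the UHRF1 array DAZL was at 0.23, TDRD9 at -0.63 and OOEP at 0.72.

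Since maintenance methylation acts on CG, promoter windows of these genes are shown, taken around the annotated start from RefSeq on GRCh38.p14, with each CG in capitals. The DAZL window (chr3:16605374-16605673, minus strand, one of 2 annotated starts) holds 33 CG, the TDRD9 window (chr14:103928206-103928505, plus strand) holds 41 and the UCHL1 window (chr4:41256678-41256977, plus strand) holds 25. Windows with at least as many CG make up 17.2%, 6.69% and 32.0% of 35116 human promoter windows, whose median is 14. Among the genes tested that had a promoter sequence, the median was higher, at 24 (quartiles 13 and 33). It was 13 for the 243 higher genes and 24 for the 79 lower ones, of which only 71.6% and 72.2% had a sequence. The window of C1QTNF5, the gene with the widest lower difference (chr11:119346656-119346955, minus strand), holds 5, and 70.4% of windows hold at least as many. CG-rich and CG-poor windows were found on both sides: among other named genes, the higher genes BNIP3, OOEP, VCY and SSX4B have 48, 23, 16 and 10 CG, and the 3 windows of the lower gene TUB have 41, 6 and 37. A CG count is a description of the sequence, and methylation was not measured on these arrays.
DAZL: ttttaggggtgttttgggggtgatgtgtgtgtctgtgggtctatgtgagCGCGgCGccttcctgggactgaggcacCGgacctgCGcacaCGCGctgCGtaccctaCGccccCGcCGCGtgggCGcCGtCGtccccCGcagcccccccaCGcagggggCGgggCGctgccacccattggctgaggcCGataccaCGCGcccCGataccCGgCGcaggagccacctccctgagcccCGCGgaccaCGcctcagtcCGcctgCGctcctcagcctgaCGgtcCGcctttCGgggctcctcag
TDRD9: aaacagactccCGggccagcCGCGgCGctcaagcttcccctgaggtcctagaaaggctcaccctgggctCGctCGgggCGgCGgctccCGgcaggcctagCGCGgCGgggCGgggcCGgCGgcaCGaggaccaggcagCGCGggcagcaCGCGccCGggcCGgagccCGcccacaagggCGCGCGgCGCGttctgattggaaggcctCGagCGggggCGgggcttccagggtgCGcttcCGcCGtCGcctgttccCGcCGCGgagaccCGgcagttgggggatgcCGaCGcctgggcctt
UCHL1: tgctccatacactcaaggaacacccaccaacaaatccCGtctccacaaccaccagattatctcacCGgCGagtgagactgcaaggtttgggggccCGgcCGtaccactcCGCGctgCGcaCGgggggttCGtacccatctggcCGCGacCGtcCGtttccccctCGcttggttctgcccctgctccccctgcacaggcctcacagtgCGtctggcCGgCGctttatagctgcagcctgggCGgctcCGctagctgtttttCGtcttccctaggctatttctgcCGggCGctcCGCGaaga
C1QTNF5: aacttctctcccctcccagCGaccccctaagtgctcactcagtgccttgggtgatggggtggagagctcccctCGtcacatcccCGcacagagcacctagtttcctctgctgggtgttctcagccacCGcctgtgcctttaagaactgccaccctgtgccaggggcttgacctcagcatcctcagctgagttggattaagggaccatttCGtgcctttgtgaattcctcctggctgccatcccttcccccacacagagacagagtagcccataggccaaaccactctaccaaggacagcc

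UCHL1, a neuronal deubiquitinating enzyme whose promoter is often methylated in colorectal cancer, stood at 0.82 and 6.67 in DLD1, at 2.94 and 6.49 in HT29 and at 3.46 and 7.22 in RKO. It was above control with both hairpins and higher with shRNA 51 in each line, by 4.39 ± 1.27 (SD, n = 3 lines, 20.9-fold, limma adjusted p = 0.199, and 0.0406 with shared ratios left out). The UHRF1 array had it at 4.70. BNIP3, a mitochondrial receptor for mitophagy, differed in form: its shRNA 49 ratios were -0.04, 0.02 and 0.45 in DLD1, HT29 and RKO, and its shRNA 51 ratios 4.69, 2.93 and 7.12. The shRNA 49 arrays had BNIP3 at about the control level and the shRNA 51 arrays far above it, while the UHRF1 array had -0.10. PLAU, the urokinase plasminogen activator, stood at 0.36 and 3.10, -0.87 and 3.02, and -0.61 and 2.25 (limma adjusted p = 0.197, and 0.0336 with shared ratios left out). It was at -1.12 on the UHRF1 array. SAMD9L, an interferon-inducible antiviral factor, was below control with shRNA 49 in DLD1 (-2.11) and HT29 (-2.39) and at 0.02 in RKO, against 1.61, 4.85 and 2.81 with shRNA 51.

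SSX4B, a cancer-testis antigen of chromosome X, stood at -0.05 and 3.12, 0.83 and 4.2, and 1.21 and 4.44, and was at 3.96 on the UHRF1 array. TCAM1P, a pseudogene of a testicular adhesion molecule, stood at 0.05 and 3.78, 0.31 and 4.77, and 0.64 and 3.58, with a shared ratio on all 6 arrays. MILR1, an inhibitory receptor of mast cells, was below control with shRNA 49 in every line (-0.51, -2.12 and -0.59) and above it with shRNA 51 (2.31, 1.18 and 3.13). SLC15A3, a lysosomal transporter of histidine and peptides, stood at 0.52 and 3.17, -0.19 and 3.69, and 0.91 and 3.70 without any shared ratio (limma adjusted p = 0.198, and 0.0387 with shared ratios left out). In each of these 4 genes, named for a wide difference, the shRNA 49 and shRNA 51 values did not overlap.

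Of the 10 genes furthest apart on the higher side, 9 rested on 1 probe, and 8 had a shared ratio on at least 1 array. All 10 had every shRNA 51 value above every shRNA 49 value. They were chosen for a wide difference in every line, which favours such separation. The share of all genes without overlap was not counted, so the lack of overlap in named genes is a description only. Of the 9 with a ratio on the UHRF1 array, 7 were above 0 there, as were 52.6% of all genes.

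Cancer-testis antigens, proteins of testis and of tumours that are mostly encoded on chromosome X, were the list furthest above the background. Of 57 listed genes 31 could be tested, 28 of them on chromosome X. Higher with shRNA 51 in all 3 lines were 29, and lower 0, against 22.6% and 15.3% of all genes. At least 2-fold in all lines were 25, against 1.55% of all genes. Median ratios of the list in DLD1 were 0.76 and 3.81, those in HT29 1.75 and 4.32, and those in RKO 1.66 and 5.46, so both hairpins had the list above control and shRNA 51 had it further above. The median difference over the lines was 2.56, against 0.09 for all genes. It was 1.76 with the arrays scaled to one spread and 0.96 after quantile normalization.

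MAGEA1, a MAGE family antigen, stood at 1.21 and 3.81 in DLD1, at 2.08 and 6.22 in HT29 and at 3.05 and 8.83 in RKO. MAGEC1 stood at 0.14 and 2.78, at 2.11 and 4.97, and at 2.02 and 5.13. SPANXA1, a sperm nuclear protein, stood at 1.06 and 5.0, at 1.06 and 4.32, and at 2.96 and 5.63 (limma adjusted p = 0.197, and 0.0336 with shared ratios left out). In all 3 genes every shRNA 51 value lay above every shRNA 49 value, most narrowly in MAGEC1 and MAGEA1, where the shRNA 51 value of DLD1 was the lowest of its group. VCY, a small testis protein, had 1.39 and 5.32, 1.14 and 4.91, and 2.99 and 6.36 (mean difference 3.69 ± 0.29, limma adjusted p = 0.117, and 0.011 with shared ratios left out). CTAG1A, which encodes NY-ESO-1, was already high with shRNA 49, at 4.19, 4.77 and 4.24, against 5.73, 6.05 and 6.17 for shRNA 51. VCX and VCY, SPANX, MAGEA, SSX, CT45, PAGE and CTAG genes have near-identical copies, so which copy a probe read is uncertain. On the UHRF1 array 25 of 30 listed genes were above 0 and 18 at least 2-fold above control, against 52.6% and 2.77% of all genes.

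Chromosome X held 43 of the 243 higher genes (17.7%), against 548 of all genes tested (3.5%). The cancer-testis list accounts for 25 of the 243, and all lists together for 53, so most of the higher genes belong to none of the lists.

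Genes of meiosis and of the piRNA pathway, both germline processes, were higher in all 3 lines for 19 of 33 tested members (57.6%) and lower for 2 (6.06%), against 22.6% and 15.3% of all genes, with 8 at least 2-fold higher, against 1.55% of all genes. Beside DAZL and TDRD9, TDRD12, a tudor protein of the piRNA pathway, stood at 0.20 and 2.48, 1.13 and 6.95, and 2.58 and 8.71. GTSF1, a piRNA pathway zinc-finger protein, stood at 2.26 and 4.91, 3.10 and 5.04, and 1.46 and 5.56. MEIOB, a meiotic single-strand DNA-binding protein, went the other way, at 0.42 and -0.31, -0.07 and -1.50, and 0.70 and -0.51. The piRNA genes named here thus lay above control with shRNA 49 in HT29 and RKO and further above it with shRNA 51. The list's median difference was 0.78, and 0.34 after quantile normalization.

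**Figure D2:**
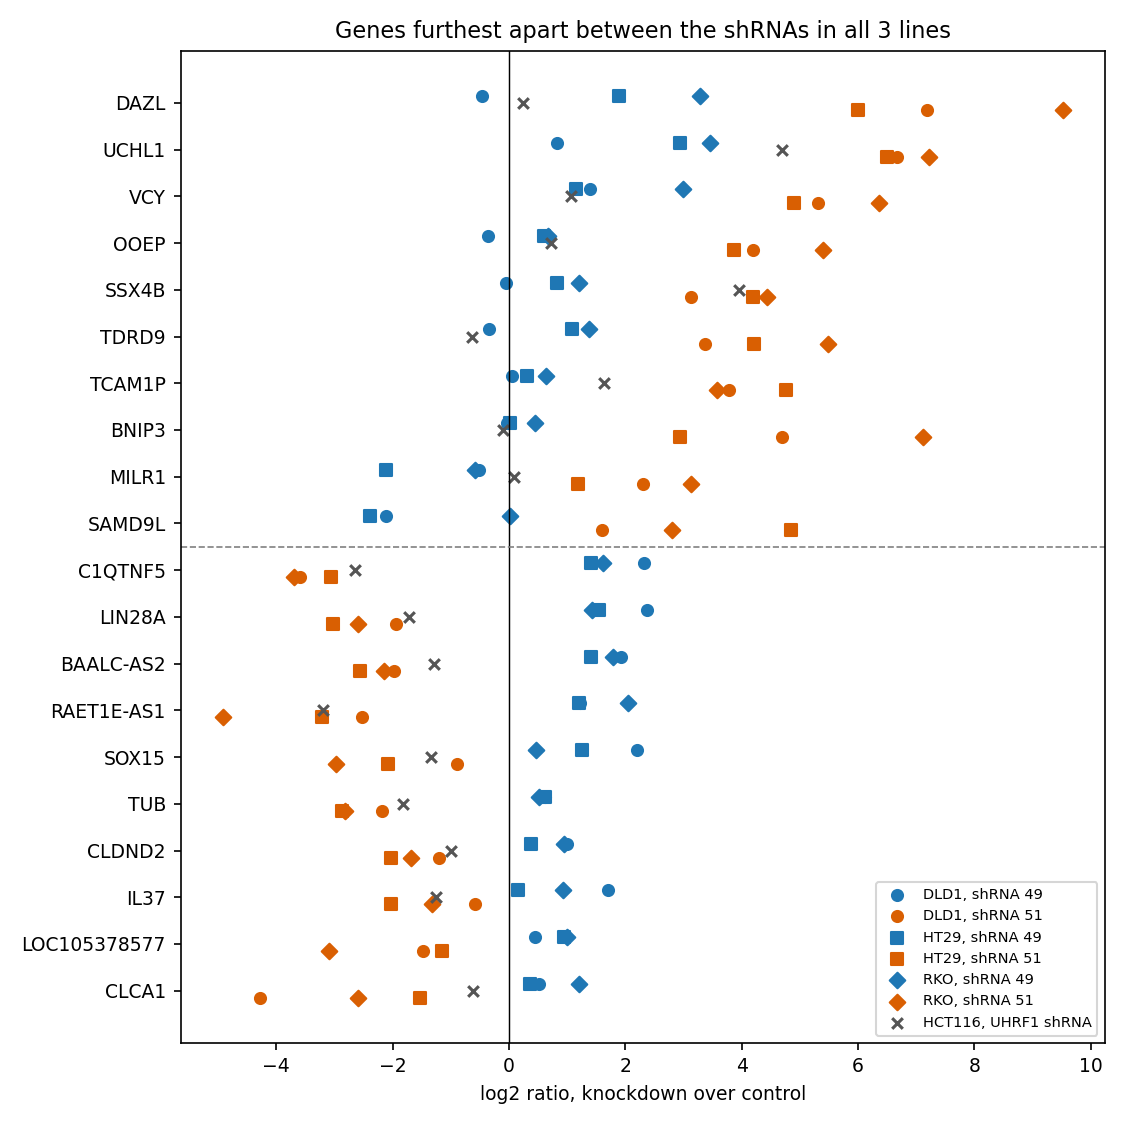
Log2 ratio of knockdown over control (x axis) of the 10 genes furthest apart on the higher side and the 10 on the lower side, ranked by the line difference nearest to 0. Points are single arrays, blue for shRNA 49 and orange for shRNA 51, and the shape gives the line. The HCT116 array with UHRF1 shRNA is a cross. In all 20 genes, which were chosen for a wide difference, the orange and blue points do not overlap.

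Metallothioneins, small cysteine-rich proteins that bind zinc and copper and are induced by these metals, formed the next list. Of 14 tested metallothionein and zinc exporter genes, 9 were higher with shRNA 51 in all 3 lines (64.3%, against 22.6% of all genes). Lower in all lines were 0, against 15.3% of all genes, and 7 were at least 2-fold higher, against 1.55%. MT2A, read by 3 probes, stood at 0.09 and 1.95 in DLD1, at -0.90 and 1.95 in HT29 and at 0.39 and 4.24 in RKO (mean difference 2.85 ± 1.00, SD, n = 3 lines, limma adjusted p = 0.237). MT1X stood at -0.04 and 1.55, -0.82 and 1.90, and -0.38 and 3.19. MT1H stood at -0.02 and 1.36, -0.67 and 1.65, and -0.36 and 2.98. All 3 genes were near or below control with shRNA 49 and above it with shRNA 51, with no overlap. The MT1 genes are close copies of one another, and their nearly equal ratios cannot be assigned to single genes. SLC30A1, the zinc exporter of the plasma membrane, did not follow in RKO, at 0.18 and 0.74, -0.19 and 0.85, and -0.74 and -0.81. On the UHRF1 array the list lay on the other side of control, with a median of -1.38, 11 of 14 genes below 0 and 9 at least 2-fold below. Of all genes, 47.4% were below 0 on that array and 1.56% at least 2-fold below. MT2A was at -1.59 there and MT1X at -1.56.

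Promoter windows of MT1X (chr16:56682220-56682519), MT1H (chr16:56669564-56669863) and MT2A (chr16:56608334-56608633), all on the plus strand, are shown because these genes lay higher together. Capitals mark the metal response element core searched on both strands, TGCACNC or TGCGCNC, the sequence bound by the zinc-sensing factor MTF1, and capital runs may adjoin. The MT1X window holds 4 matches and those of MT1H and MT2A hold 8 each. That of SLC30A1, which did not follow in RKO and is not shown, holds 2. Whether the matches bear on the differences was not tested. At least 1 match is found in 29.6% of all promoter windows, at least 2 in 8.6%, at least 4 in 0.601% and at least 5 in 0.162%.
MT1X: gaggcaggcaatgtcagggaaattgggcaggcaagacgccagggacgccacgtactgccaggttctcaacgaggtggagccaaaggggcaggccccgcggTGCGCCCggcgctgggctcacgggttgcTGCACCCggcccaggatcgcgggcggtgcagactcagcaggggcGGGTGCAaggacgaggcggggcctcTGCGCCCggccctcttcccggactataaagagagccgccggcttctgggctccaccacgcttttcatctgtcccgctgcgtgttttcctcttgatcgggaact
MT1H: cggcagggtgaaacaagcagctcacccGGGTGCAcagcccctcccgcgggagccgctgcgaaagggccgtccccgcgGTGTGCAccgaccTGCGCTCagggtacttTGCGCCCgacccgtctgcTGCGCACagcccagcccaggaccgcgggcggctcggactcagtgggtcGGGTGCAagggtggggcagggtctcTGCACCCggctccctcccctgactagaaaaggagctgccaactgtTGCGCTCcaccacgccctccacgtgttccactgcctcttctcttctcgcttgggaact
MT2A: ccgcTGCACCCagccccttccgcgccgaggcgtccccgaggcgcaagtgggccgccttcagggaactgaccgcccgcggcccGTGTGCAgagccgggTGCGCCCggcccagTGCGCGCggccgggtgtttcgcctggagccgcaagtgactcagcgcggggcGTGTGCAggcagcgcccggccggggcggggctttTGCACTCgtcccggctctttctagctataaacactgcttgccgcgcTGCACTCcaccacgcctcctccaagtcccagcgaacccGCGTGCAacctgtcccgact

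**Figure D3:**
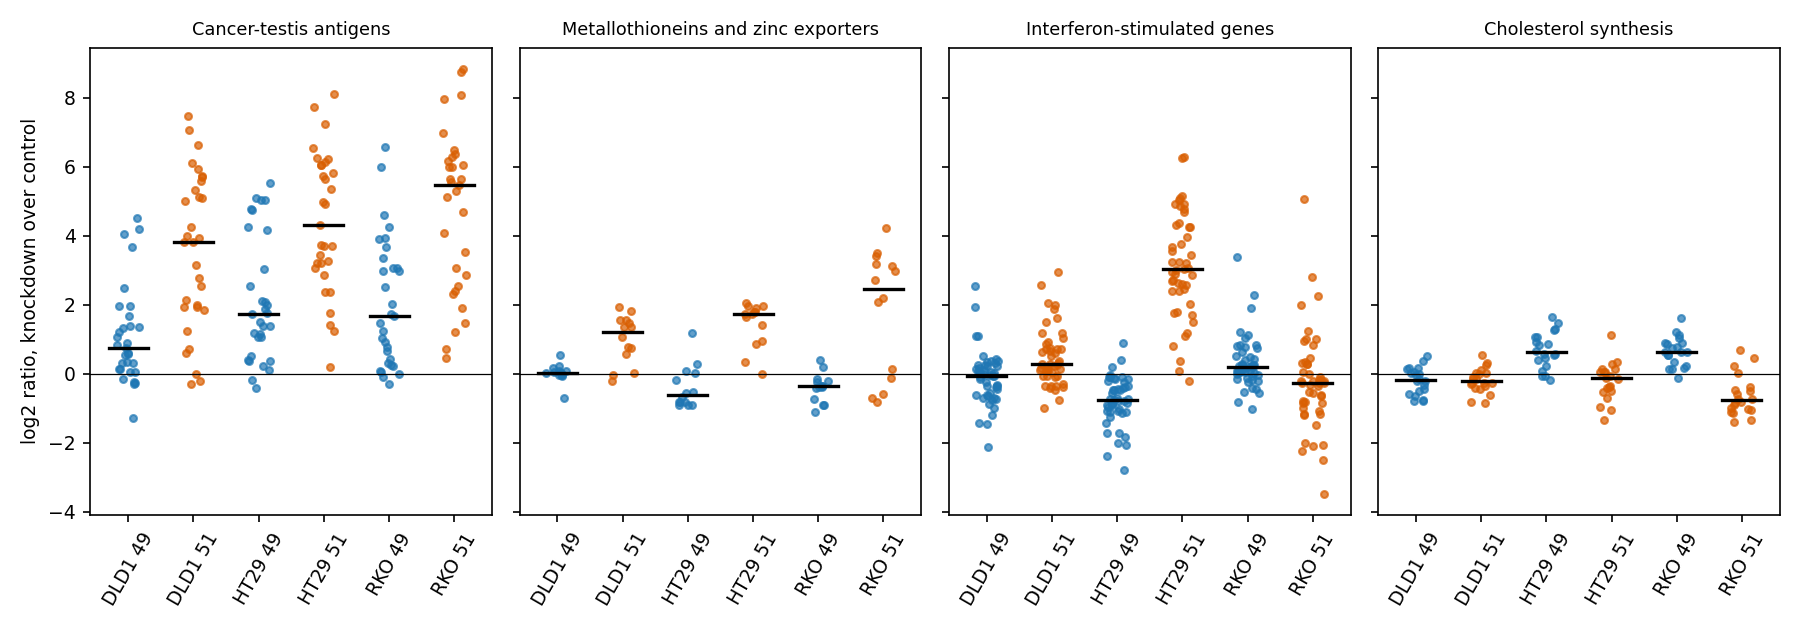
Log2 ratio of knockdown over control (y axis) of the tested members of 4 lists on each of the 6 arrays (x axis); each point is a gene and the bar is the median. Cancer-testis medians are above 0 on all 6 arrays and higher with shRNA 51, metallothionein medians are at 1.21 to 2.47 with shRNA 51, and interferon-stimulated genes stand apart in HT29 with shRNA 51.

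Genes often hypermethylated in colorectal cancer were higher in all 3 lines for 14 of 42 tested members (33.3%, against 22.6% of all genes). Lower in all lines were 0, against 15.3% of all genes, and 6 were at least 2-fold higher, against 1.55%. Beside UCHL1 and BNIP3 these included VIM, the mesenchymal filament vimentin, which 2 probes read at -0.31 and 1.83, 0.05 and 3.15, and 4.07 and 7.13. HLTF, a chromatin remodeller, stood at 0.50 and 2.24, 1.55 and 3.33, and -0.11 and 5.25. SPARC, a matrix protein, stood at 0.62 and 6.30, -0.80 and 2.12, and -0.25 and 0.85. VIM and SPARC were also high on the UHRF1 array, at 2.94 and 4.93, and HLTF was not, at -0.05. The list's median difference was 0.36, and -0.05 over the 14 members left when shared ratios are left out.

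Interferon-stimulated genes, the antiviral programme that follows interferon signalling, did not differ the same way in the 3 lines. With shRNA 51 their median differences were 0.42 in DLD1, 3.94 in HT29 and -0.56 in RKO, and 12 of 47 members were higher in all lines (25.5%, near the 22.6% of all genes). OAS2, a sensor of double-stranded RNA, stood at 0.22 and 2.57, -1.73 and 6.26, and 0.09 and -1.19. IFI44 stood at -1.45 and 0.12, -1.99 and 5.16, and 2.28 and -2.24, so that RKO ran opposite to HT29. Members that were higher in every line included IFI27, at -0.08 and 2.05, -1.72 and 4.30, and 3.38 and 5.07. The list's median difference of 1.37 rested on HT29, and without that line it was -0.13. HT29 was also the line in which DNMT1 stayed highest with shRNA 51, whose part in this was not tested. On the UHRF1 array 42 of 46 members were above 0, as were 52.6% of all genes.

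Inflammatory genes under NF-kB control were higher in all 3 lines for 13 of 26 members (50%, against 22.6% of all genes). Lower was 1 (3.85%, against 15.3%). At least 2-fold apart in all lines were 0, against 1.55% higher and 0.505% lower of all genes. LCN2, an iron-scavenging defence protein, stood at -0.93 and 2.71, -2.33 and 1.43, and 0.46 and 0.79. NFKBIA, the inhibitor of NF-kB, stood at -0.08 and 0.25, 0.17 and 2.02, and -0.41 and 0.67. The chemokine CXCL11 was read by no single probe on all 6 arrays and was not tested. As the mean of its probes on each array it stood at 0.98 and 3.67, -0.45 and 4.21, and -0.17 and 3.90. CCL20, a chemokine of mucosal epithelium, had no ratio in DLD1 with shRNA 51 and stood at -0.13 and 4.39 in HT29 and -0.57 and 3.78 in RKO. Antigen presentation genes were higher in all lines for 13 of 26 members (50%) and lower for 0, against 22.6% and 15.3% of all genes. Among the higher ones was the class II chain HLA-DPA1 (0.03 and 0.76, -0.33 and 1.76, -0.05 and 2.06). Both lists had their largest median difference in HT29, at 1.25 and 1.09, against 0.27 and 0.39 in DLD1 and 0.34 and 0.19 in RKO.

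Histone genes were higher in all 3 lines for 14 of 27 members (51.9%, against 22.6% of all genes) and lower for 2 (7.41%, against 15.3%). H2AC6, as the mean of 2 probes, stood at -0.39 and 1.40, -1.54 and 0.06, and 0.33 and 1.38. Its probes disagreed in RKO, at 1.30 and 1.07 against -0.65 and 1.69. In DLD1 they stood at -0.58 and 2.93 against -0.19 and -0.13. KRT23, a keratin, stood at 4.56 and 8.44 in DLD1, at -1.32 and 5.06 in HT29 and at -0.31 and 0.89 in RKO, the only one of 29 epithelial genes at least 2-fold higher in all lines. EPCAM stood at 0.03 and 0.35, 0.24 and 0.37, and 1.44 and 4.74, and the epithelial list as a whole had 7 members higher (24.1%, near the 22.6% of all genes) and 0 lower. Among markers of other cell types, 8 of 17 tested haematopoietic markers were higher in all lines (47.1%, against 22.6% of all genes) and 0 lower. Their median difference was 0.38, and 0.088 over the 4 members left without shared ratios. The member at least 2-fold higher was LAPTM5, at -0.15 and 2.71, 0.24 and 2.83, and -0.41 and 1.20. Of 12 fibroblast and endothelial markers 2 were higher (16.7%), and of 13 neuronal and glial markers 4 were higher (30.8%) and 3 lower (23.1%), with NEFH at 1.19 and 4.36, 2.93 and 4.82, and 1.03 and 4.76. Their part in the results was not tested, and ratios do not show which of them are at 0.

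On the lower side the gene furthest apart was C1QTNF5, a secreted C1q and TNF related protein. It stood at 2.32 and -3.59 in DLD1, at 1.41 and -3.06 in HT29 and at 1.62 and -3.69 in RKO. Each hairpin gave a narrow range on its own side of control, and the mean difference was -5.23 ± 0.73 (SD, n = 3 lines, limma adjusted p = 0.117, and 0.0093 with shared ratios left out). LIN28A, the RNA-binding protein that blocks maturation of let-7 microRNAs, stood at 2.37 and -1.94, 1.54 and -3.03, and 1.42 and -2.59 (mean difference -4.30 ± 0.28, limma adjusted p = 0.117, and 0.0093 with shared ratios left out). The antisense RNA BAALC-AS2 stood at 1.92 and -1.98, 1.41 and -2.55, and 1.80 and -2.14 (mean difference -3.93 ± 0.03, limma adjusted p = 0.117). All 3 were above control on each shRNA 49 array and below it on each shRNA 51 array.

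TUB, the tubby protein of neurons and cilia, repeated closely over the lines, at 0.62 and -2.19, 0.62 and -2.88, and 0.52 and -2.82 (limma adjusted p = 0.131, and 0.0231 with shared ratios left out). RAET1E-AS1, another antisense RNA, stood at 1.23 and -2.53, 1.21 and -3.21, and 2.04 and -4.92. SOX15, a transcription factor of the SOX family, stood at 2.20 and -0.90, 1.26 and -2.08, and 0.47 and -2.98. CLCA1, a protein secreted by goblet cells, stood at 0.52 and -4.29, 0.36 and -1.53, and 1.20 and -2.59. These too crossed control between the hairpins in every line. CLDND2, a claudin domain protein, stood at 1.00 and -1.20, 0.38 and -2.03, and 0.94 and -1.68, and the cytokine IL37, which dampens inflammation, at 1.69 and -0.59, 0.15 and -2.03, and 0.92 and -1.33. The uncharacterised LOC105378577 stood at 0.45 and -1.48, 0.94 and -1.16, and 1.00 and -3.09, with a shared ratio on all 6 arrays. Whether the array separates an antisense RNA from its partner gene on the other strand is not stated.

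All 10 genes furthest apart on the lower side rested on 1 probe each, and 6 had a shared ratio on at least 1 array. On the UHRF1 array, whose knockdown RNA carried Cy5 as on the shRNA 51 arrays, all 9 of these genes with a ratio were below 0. Of all genes, 47.4% were below 0 there. C1QTNF5 was at -2.65, LIN28A at -1.72, BAALC-AS2 at -1.28, RAET1E-AS1 at -3.20 and TUB at -1.83. Where another probe existed it could differ: NDST1, a heparan sulphate modifying enzyme, was at 0.77 and -2.42, 0.10 and -3.08, and -0.10 and -2.80 by one probe, and at 0.03 and 0.36, 0.59 and -0.83, and -0.86 and -0.41 by the other. Over both probes its limma adjusted p was 0.295, and it passed with shared ratios left out (0.0231), where the first probe alone gives the value.

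Beyond the named genes, the UHRF1 array lay on the side of shRNA 51 more often than in all genes. Of the 243 higher genes 240 had a ratio there, of which 162 (67.5%) were above 0, against 52.6% of all genes, and 52 (21.7%) were at least 2-fold above, against 2.77%. Of the 79 lower genes 75 had a ratio, of which 48 (64.0%) were below 0, against 47.4%, and 17 (22.7%) were at least 2-fold below, against 1.56%. Across 15537 genes the mean difference correlated with the UHRF1 array at r = 0.161 (Spearman 0.112). The shRNA 51 arrays each correlated with it more than the shRNA 49 array of the same line, at 0.125 against 0.006 in DLD1, 0.189 against 0.086 in HT29 and 0.149 against 0.098 in RKO. These are correlations across genes, which are not independent replicates, and the arrays share probes and dye orientation.

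The differences of the 3 lines resembled one another to a limited degree across 15653 genes. They correlated at r = 0.311 between DLD1 and HT29, 0.200 between DLD1 and RKO and 0.163 between HT29 and RKO. Within a line, the ratios of shRNA 49 and shRNA 51 correlated at 0.366 in DLD1, 0.208 in HT29 and 0.268 in RKO. Both ratios of a line are taken against the non-silencing control of that line, and no value of r without a response is known for them. Of all genes 592 lay above control on all 6 arrays and 495 below.

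Lists of growth and metabolism included several with more members lower than higher in all 3 lines, against 15.3% lower and 22.6% higher of all genes. Cholesterol synthesis genes were lower in all 3 lines for 8 of 20 members (40.0%) and higher for 0, with median differences of 0.10 in DLD1, -0.81 in HT29 and -1.34 in RKO. MVD, the mevalonate decarboxylase, stood at 0.53 and -0.62, 1.48 and -1.34, and 0.87 and -0.38. MVK, the mevalonate kinase, stood at 0.37 and -0.28, 1.06 and 0.05, and 1.21 and -1.13. The list as a whole was lower in HT29 and RKO and not in DLD1.

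Hypoxia and glycolysis genes were lower in all lines for 12 of 38 members (31.6%) and higher for 2, one of them BNIP3. The glycolytic enzyme ENO1 stood at 0.22 and -1.15, 0.74 and -0.72, and 0.15 and -1.01, and its neuronal relative ENO2 at 1.53 and 0.06, 0.16 and -1.41, and -0.19 and -1.29. LDHA, lactate dehydrogenase, stood at -0.06 and -0.48, 0.60 and -0.39, and -0.49 and -1.59. BNIP3, a known hypoxia target, thus lay far higher with shRNA 51 while 12 other members lay lower. The list's median difference was -0.26, and -0.12 without RKO.

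Wnt targets and intestinal stem cell genes had 6 of 16 members lower in all lines (37.5%) and 2 higher. ASCL2, a stem cell transcription factor, stood at 0.92 and -0.57, 3.25 and 1.61, and 2.18 and 1.18, and AXIN2, a feedback inhibitor of Wnt signalling, at 0.20 and -0.95, 1.6 and 0.63, and -0.90 and -3.81. LGR5, a stem cell receptor, stood at -0.34 and -0.87, 2.83 and 0.84, and 0.12 and -1.09. NKD1, a further Wnt inhibitor, stood at 0.17 and -1.86, 0.64 and -1.81, and -0.29 and -2.12, with a shared ratio on all 6 arrays. In HT29, ASCL2 and LGR5 stood above control with both hairpins. SOX9, a crypt transcription factor, went the other way, mainly in RKO, at -0.10 and 0.37, -0.22 and 0.29, and -0.19 and 3.13.

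Genes of DNA replication and of mitosis were lower in all 3 lines for 14 of 43 (32.6%) and 14 of 39 members (35.9%), and higher for 3 and 4. FOXM1, which drives mitotic genes, stood at 0.25 and -0.93, 0.89 and -0.16, and 0.53 and -0.80. CDT1, a replication licensing factor, stood at 0.50 and -0.73, 0.95 and 0.21, and 1.16 and -0.52. It was the mean of 2 probes, which went opposite ways in HT29, at 1.26 and -0.45 against 0.63 and 0.88. The median difference of the replication list was -0.37 in DLD1, -0.29 in HT29 and -0.0090 in RKO, where 21 members were higher and 22 lower. Over the lines it was -0.20, and it was -0.087 without DLD1, -0.31 without RKO and -0.35 after quantile normalization. The mitosis list had medians of -0.35, -0.11 and -0.14, with 19 members higher and 20 lower in RKO, and -0.19 over the lines. It was -0.10 with the arrays scaled to one spread. SUV39H1, a histone H3 lysine methyltransferase, was the only one of 30 DNA methylation and chromatin silencing factors at least 2-fold lower in all lines, at 0.11 and -1.04, 0.72 and -0.69, and -0.13 and -1.37. DNMT3B, a methyltransferase that sets new methylation marks, stood at 1.56 and 1.77, -0.19 and 0.53, and 0.13 and 0.58, and its difference turned negative after quantile normalization. Of the 23 tested genes of shRNA and microRNA processing, 2 were higher in all lines and 4 lower, LIN28A among the latter. The shares were 8.7% and 17.4%, against 22.6% and 15.3% of all genes. AGO3, a partner protein of guide RNAs, was one of the higher ones, at -0.42 and 0.36, 0.03 and 0.67, and -0.53 and 0.59.

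Oxidative phosphorylation genes were lower in all lines for 13 of 39 members (33.3%, against 15.3% of all genes) and higher for 9 (23.1%), with a median difference of 0.08, which was -0.10 without RKO. Ribosomal proteins had 14 of 44 members higher (31.8%, against 22.6%) and 5 lower (11.4%), and p53 targets 6 of 27 each way (22.2%). CDKN1A, the p21 cell cycle inhibitor, nonetheless stood at 1.28 and 1.81, -1.10 and 0.48, and -1.0 and 0.47. It was the mean of 2 probes, which in DLD1 stood at 0.75 and 0.72 against 1.81 and 2.89. SPATA18, a p53 target of mitochondrial quality control, stood at -0.64 and 0.93, -0.90 and 0.70, and -1.22 and 1.13. Immediate early genes were near the shares of all genes, with 7 of 30 members higher (23.3%, against 22.6%) and 4 lower (13.3%, against 15.3%). IER3 was among the higher ones (0.00 and 0.92, -1.41 and -0.22, -0.41 and 1.38). The nuclear receptor NR4A2 was among the lower ones (-0.10 and -2.03, 0.84 and -1.28, 0.81 and -0.30). Mesenchymal genes were higher for 11 of 31 members (35.5%, against 22.6%) and lower for 2. FSTL1, a secreted glycoprotein, was above control on all 6 arrays, at 5.96 and 7.57, 3.47 and 4.60, and 2.26 and 2.85, and its difference turned negative when the arrays were scaled to one spread or quantile normalized.

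Imprinted genes had 6 of 20 members higher and 1 lower, with SGCE, an epsilon-sarcoglycan expressed from the paternal copy, at -0.37 and 3.05, 2.71 and 3.65, and -0.34 and 3.24. RNA sensors and interferon ligands had 3 of 19 higher and 2 lower, with the type III interferon IFNL1 at 0.06 and 0.25, -0.11 and 1.52, and 0.33 and 2.37. Differentiated colon genes had 6 of 24 higher and 2 lower, NRF2 targets 4 of 22 and 2, HOX genes 2 of 17 and 3, heat shock genes 1 of 23 and 0, and genes of unfolded protein and amino acid stress 3 of 34 and 6. The heat shock member was HSPA2, a testis-rich chaperone, at 0.62 and 3.06, 1.11 and 1.19, and 0.48 and 4.83. The members that lay on one side in all 3 lines were a minority in each of these lists, as they were among all genes. Of all genes, 22.6% were higher and 15.3% lower. The share of higher members was above that of all genes for imprinted and differentiated colon genes and below it for the other lists. The share of lower members was above that of all genes only for HOX genes and for unfolded protein and amino acid stress. Whether these shares differ from those of all genes was not tested.

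**Figure D4:**
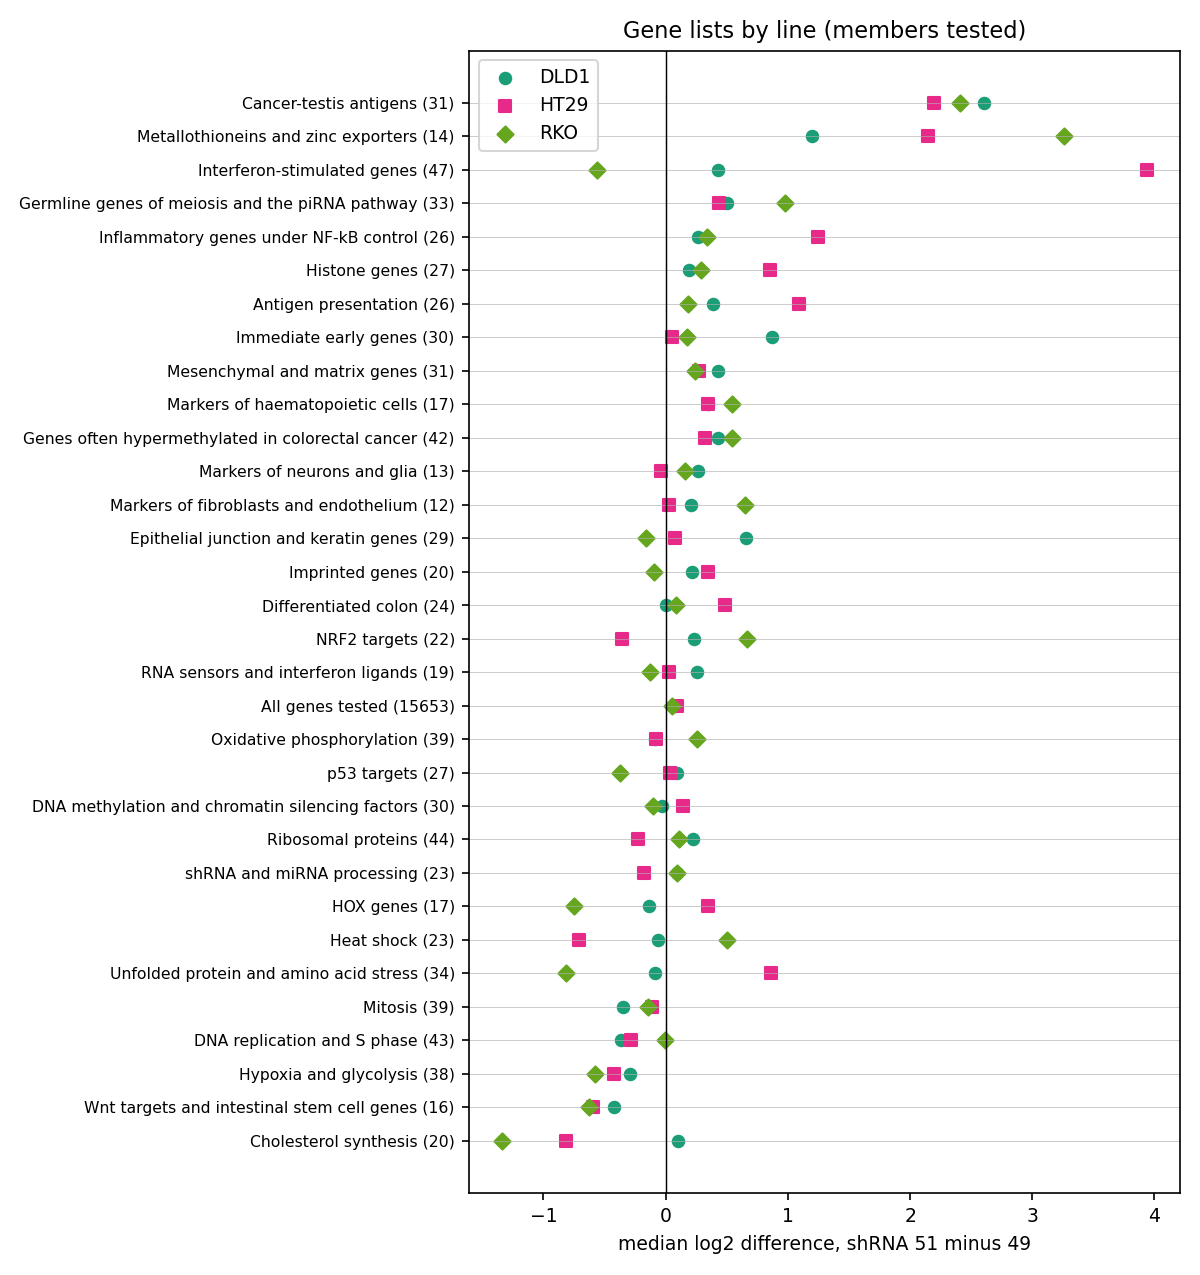
Median log2 difference, shRNA 51 minus shRNA 49 (x axis), of the tested members of each gene list (y axis, number tested in brackets) in DLD1, HT29 and RKO. Cancer-testis antigens and metallothioneins lie right of 1 in all 3 lines, interferon-stimulated genes are spread from -0.56 to 3.94, and all genes tested lie near 0.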

How the data were processed

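RNA of human colorectal cancer lines was read on 7 arrays, 6 of them in the comparison. The authors deposited log ratios for each array, with some probes left blank, and the range of the values led them to be read as log2. Per the submitters' processing notes limma was used, without a version number. How background, normalization, log base and direction were handled is not given in the sources. Signal strengths were not used, so the number of arrays limits the precision.

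Of 41000 probes, 29341 had 1 symbol in the platform annotation, 33 several and 11626 none listed, and 99.9% of those with a symbol matched a RefSeq gene (GRCh38.p14) through Entrez identifiers. The 23935 named probes with a ratio on all 6 arrays were averaged into 15653 genes. The difference was fitted with limma 3.58.1 in R 4.3.3 (lmFit with line and shRNA as terms, eBayes), two-sided, with Benjamini-Hochberg adjustment over all genes and a threshold of 0.05, and was tested on simulated data. The pairing comes from the labels, since both arrays of a pair are of the same cell line. Same-line arrays deviated from their shRNA means with r = 0.326, 0.206 and 0.194, and deviations from a mean of 3 force the correlations between lines below 0 in turn.

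Genes were named by rule: DNMT1, the 10 per direction with the widest smallest line difference, 5 per direction without shared ratios, up to 4 per list with 1 sign in all lines, the 5 smallest p, and CXCL11, CCL20, DAZL, UCHL1 and BNIP3. Further list members (OAS2, IFI44, MT1H, SLC30A1, MEIOB, NFKBIA, LDHA, SOX9, EPCAM and CTAG1A) were named after their values were seen. Members and the 31 lists were chosen with earlier results of these data known. The comparison of promoter CG counts between gene groups is incomplete and was not tested. Only 71.6% of the higher, 72.2% of the lower and 79.1% of all genes had a promoter sequence. Alternatives left out the pairing, shared ratios or a line, rescaled or quantile-normalized the arrays, averaged incomplete probes, took probe medians, or trended the spread.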

Additional observations from a re-analysis of the deposited data

Results flagged for a closer look

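In 3 gene lists the shRNA 51 minus shRNA 49 difference had opposite signs in HT29 and RKO, each at least 0.5 from 0 (log2). The difference between lines was not tested, since each line has 1 array per hairpin. Interferon-stimulated genes had median differences of 0.42 in DLD1, 3.94 in HT29 and -0.56 in RKO, and 46 of 47 members were higher with shRNA 51 in HT29 while 31 of 47 were lower in RKO. Genes of unfolded protein and amino acid stress had medians of -0.087, 0.86 and -0.82 in the same order, with 27 of 34 members higher in HT29 and 30 of 34 lower in RKO. ASNS, asparagine synthetase, stood at -4.19 with shRNA 49 and 0.36 with shRNA 51 in HT29, and at 0.03 and -2.67 in RKO. TRIB3, a stress-induced pseudokinase, stood at -2.77 and -0.42 in HT29 and at 0.93 and -0.78 in RKO. In both genes HT29 was far below control with shRNA 49 and RKO below it with shRNA 51. Heat shock genes ran the other way, with medians of -0.063, -0.71 and 0.50, 19 of 23 members lower in HT29 and 22 of 23 higher in RKO. HSPA1A, an inducible chaperone, stood at 1.59 and 0.06 in HT29 and at 1.56 and 3.23 in RKO.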

How the results depend on the processing

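The call of no gene past the threshold held with scaled arrays, quantile normalization, probe medians, probes averaged over at least 5 arrays and each line left out. Without the pairing by line (no replicate block) 0 genes were higher and 3 lower. With shared ratios left out 8 were higher and 6 lower of 9777, and with a trended, robust spread 2 were higher and 0 lower. The 243 higher genes past 2-fold in all lines became 115 after quantile normalization and 74 of 9777 without shared ratios, and the 79 lower ones 42 without shared ratios and 139 when probes were counted one by one, an alternative chosen after seeing the data. Genes higher in all lines numbered 1954 without shared ratios. Leaving out 1 line asks for 2 lines only, and gave 506 to 603 higher and 186 to 268 lower past 2-fold, and 5118 to 5635 higher and 3755 to 3946 lower by sign. Among list medians, that of cancer-testis antigens was 1.76 with scaled arrays. After quantile normalization, medians were 0.96 for cancer-testis antigens, 0.34 for germline genes, -0.028 for RNA sensors, 0.15 for hypermethylated genes, 0.18 for mesenchymal genes and 0.26 for haematopoietic markers. Without shared ratios they were -0.022 for RNA sensors, -0.048 for hypermethylated genes, -0.25 for Wnt targets, 0.23 for mesenchymal genes, 0.088 for haematopoietic markers, 0.64 for fibroblast and endothelial markers and -0.11 for neuronal and glial markers. With probes averaged over at least 5 arrays they were 0.22 for hypermethylated genes and 0.095 for neuronal and glial markers. Leaving out each line gave -0.41 to -0.12 for hypoxia and glycolysis, 0.35 to 0.50 for mesenchymal genes, 0.030 to 0.64 for fibroblast and endothelial markers and 0.14 to 0.38 for neuronal and glial markers. The mean correlation of the difference between lines ranged up to 0.311 and down to 0.163 with 1 line left out. The correlation with the UHRF1 array was 0.142 with scaled arrays, 0.106 after quantile normalization, and 0.138 to 0.153 with 1 line left out. Further list medians changed sign within the spread between lines. Among them, p53 targets went from 0.08 to -0.17 after quantile normalization and epithelial genes from 0.24 to -0.041 without DLD1. Heat shock genes went from -0.069 to 0.25 without HT29. Without RKO, unfolded protein stress went from -0.12 to 0.49 and HOX genes from -0.063 to 0.21. Differences of named genes that turned negative were those of TALDO1 (-0.0011) and DNMT3B (-0.17) after quantile normalization, and of FSTL1 with scaled arrays (-0.092) and after quantile normalization (-1.06). The causes were not tested. Quantile normalization also moved the all-gene median difference of HT29 from 0.09 to -0.01. Of the alternative values, 14 of named genes passed the threshold, and 1250 of named genes and 356 of summary results kept their direction and side of the threshold or stayed within the spread.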
